A study of Saccharomyces cerevisiae with 6 samples.

Results

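The genes described here are those whose spots stood well above background on every F3 array and on no reference array. F3 is a mutant of the budding yeast Saccharomyces cerevisiae that resists sulfur dioxide and was selected by evolutionary engineering, and it was compared with its reference strain. Each strain was grown as 3 cultures at 30 °C to early exponential phase, in minimal medium by the design text. The growth label names overnight growth in rich medium. Each culture was measured on 1 one-colour Agilent array (n = 3 F3 arrays and n = 3 reference arrays). No sulfite was named among the growth conditions, and the genotype and ploidy of the strains are not given in the sources used here. F3 is 1 selected mutant, so what is particular to it cannot be separated from what any resistant isolate would show.

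A gene counted as detected on an array when at least 1 of its 2 spots carried the scanner software's flag for signal well above background. Of 6256 genes with a probe, 39 (0.623%) form the set, being detected on all 3 F3 arrays and on 0 reference arrays. In addition, 1 further gene met the rule and was left out. The opposite pattern, detection on all 3 reference arrays and on 0 F3 arrays, was found for 41 genes. A further 202 genes were detected on no array, and 5755 on all of them. Because the flags of these same arrays chose the 39 genes, their higher level in F3 is a description and carries no test. For the same reason nothing is read from the finding that limma called 39 of 39 higher in F3 at an adjusted p under 0.05, where 41.5% of the 5948 tested genes were called higher and 79.7% in either direction. The same holds for the 37 of 39 that were called at least 2-fold higher, where the share over all tested genes was 16.6%. All 39 entered the test only through their detection in F3.

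Of the 39 genes, 16 have a standard name in the RefSeq gene table, 12 are listed there under their systematic name alone, and 11 (28.2%) are not listed, against 7.63% of all genes on the array. The 39 were mostly dim, and the unlisted share among other dim genes was not counted. The named genes have unlike roles. ZNF1 encodes a zinc cluster transcription factor that acts in the shift to respiratory growth. RSB1, HXT15, HXT16, ARR3 and NFT1 encode membrane transporters. SLZ1, PCH2, CSM4 and OSW1 act in meiosis or spore formation, programmes that budding yeast normally starts on starvation as a diploid. GTO3 encodes a glutathione transferase of the omega class. Glucose-grown yeast keeps many genes for other carbon sources, for sporulation and for stress at low transcript levels, so such genes often lie near the limit of an array.

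Levels are log2 signals with the array's own 75th percentile set to 0. Values after ± are SDs over the 3 arrays of a strain, and differences are log2 levels of F3 minus reference. The 75th percentile had a signal of 8314 to 9534 in F3 and of 2791 to 4973 in the reference, in the scanner's intensity units. The lowest level of a detected gene was between −9.70 and −8.86 on the F3 arrays and between −9.24 and −8.81 on the reference arrays. These limits overlapped on the relative scale, although the F3 arrays were brighter. In extracts of whole cultures, more cells expressing a gene and more RNA per cell cannot be told apart. On the reference arrays undetected genes reached levels up to −7.70, so detected and undetected genes share a zone. The F3 arrays shared 1 slide and 1 scan. The reference arrays lay on 2 other slides, in 2 scans of another day per the file headers, so the day of scanning and the strain cannot be told apart. The software's checks of the spot grid and of the negative-control signal were failed by all 3 F3 arrays and passed by all 3 reference arrays (negative-control signal 95.6 to 97.1 in F3 and 27.4 to 32.4 in the reference), and their part in the results was not tested.

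Across the 39 genes the F3 mean ran between −8.18 and −1.49 with a median of −7.25, and the reference mean between −10.19 and −8.41 with a median of −9.18. The median log2 difference (F3 minus reference) was 2.18, beside 0.05 over all tested genes, and single genes lay between 0.47 and 7.88. In 38 of the 39 genes all F3 values lay above all reference values, as they did in 43.0% of tested genes. The genes were mostly dim in F3 as well. The median gene stood at percentile 8.22 of all F3 means, and 8 of the 39 stood above percentile 10. In 26 of the 39 genes every F3 level lay above the highest level of any undetected gene on a reference array, while in the other 13 at least 1 F3 level lay inside the shared zone.

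**Figure D1:**
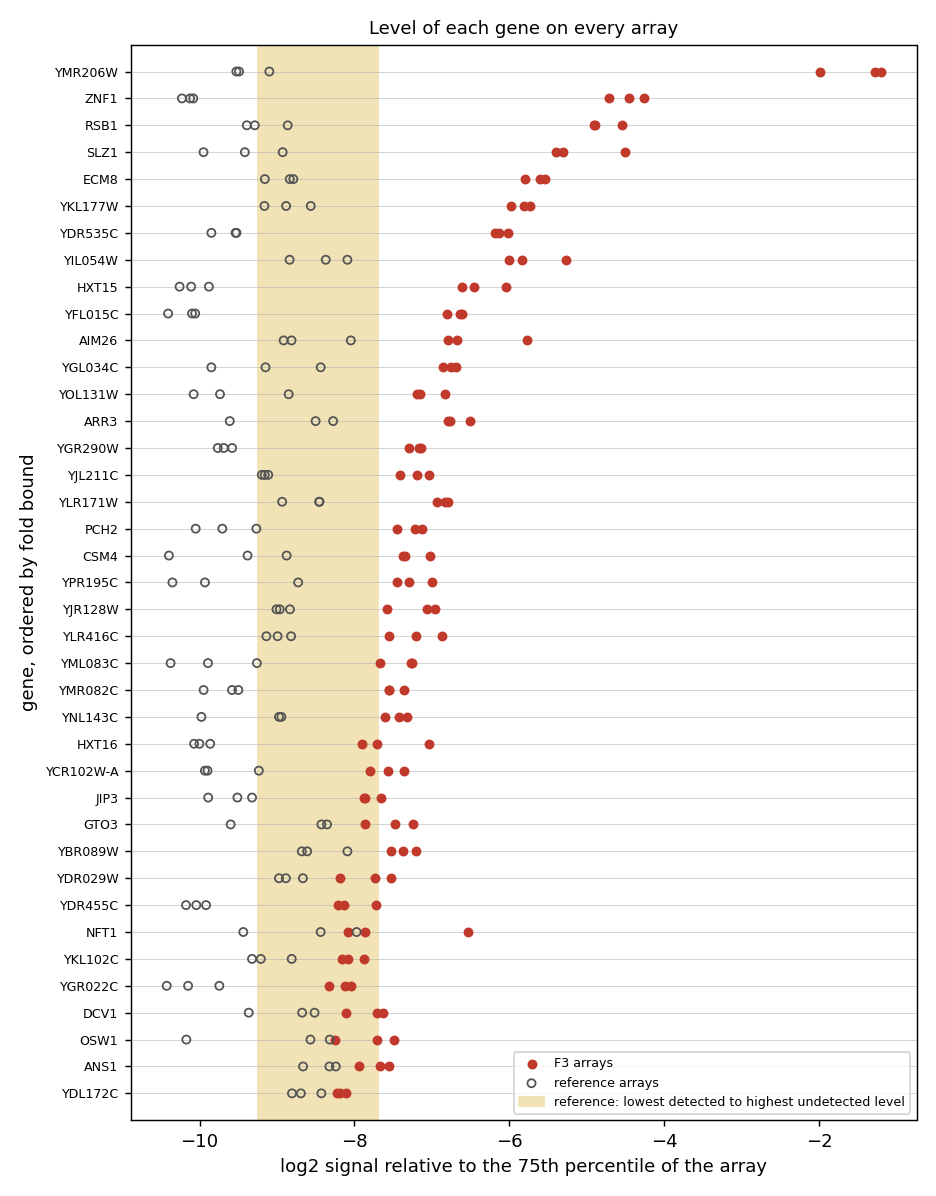
Level of each of the 39 genes on every array, as log2 signal with the array's 75th percentile at 0 (horizontal), with F3 arrays as filled and reference arrays as open points; the band runs between the lowest detected (−9.24) and the highest undetected level (−7.70) on the reference arrays. YMR206W stands far to the right at −1.98 to −1.21 in F3, and the lowest rows have F3 points inside the band.

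**Figure D2:**
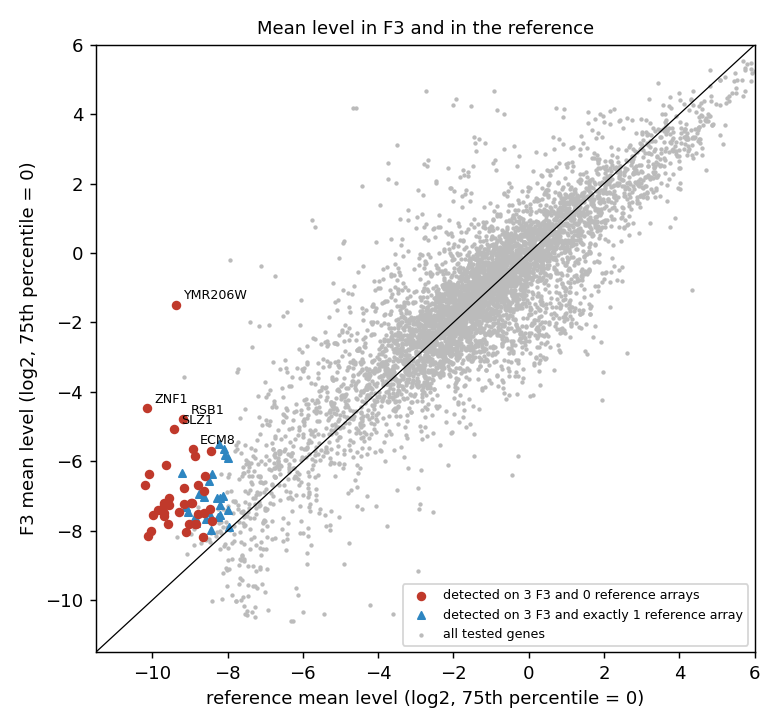
Mean F3 level (vertical) against mean reference level (horizontal) for the 5948 tested genes in grey, with the 39 genes in red, the 25 genes detected on all F3 arrays and exactly 1 reference array as triangles, and the line of equal level. The red points fill the dim left edge, and YMR206W is the one with an F3 mean near the middle of all genes.

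For a gene below background in the reference, the fold is only a bound. It sets the F3 mean against a ceiling for the reference, namely each reference array's lowest detected level or the gene's level there if that was higher, averaged over the arrays. By this measure 31 of the 39 genes were at least 2-fold higher in F3, 12 at least 4-fold, 5 at least 8-fold and 3 at least 16-fold. The other 8 had bounds between 1.38 and 1.98, and the median over the 39 was 3.20. These bounds rest on the processed signal and on the lowest detected level as the limit. With the 5th percentile of detected levels as the limit, 4 of the 39 genes had a bound of at least 2-fold and 10 a bound above 1. Scaling to spike-in RNAs adds the same amount to every difference, so that the median of all genes lies at 1.76, and the median of the 39 at 3.89. With a normexp background correction and an offset of 50 in place of the processed signal, 28 of the 39 differences turned below 0 and 11 stayed above. The offset alone, on the brighter F3 arrays, gives a gene without signal a difference of −1.14 in that setting. With normexp and no offset, 37 of 39 lay above 0.

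**Figure D3:**
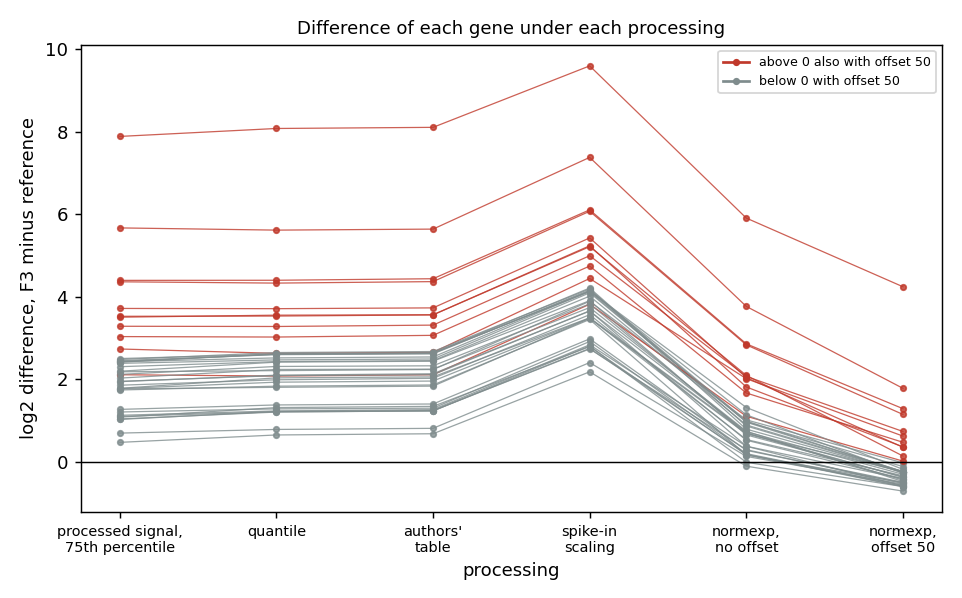
Log2 difference (F3 minus reference, vertical) of each of the 39 genes under 6 ways of processing (horizontal), 1 line a gene. Lines in red stay above 0 with the normexp offset of 50 and lines in grey fall below it, and the median over the genes is 2.18, 2.31, 2.32, 3.89, 0.79 and −0.26 from left to right.

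"Below background" did not mean without signal. A weaker flag of the software marks spots that are positive and differ significantly from the local background. By it, 24 of the 39 genes had such a spot on all 3 reference arrays, 10 on 2 of them and 4 on 1. In 13 genes all 6 reference spots carried the weaker flag. Only YFL015C had no such spot on any reference array. In F3, 29 of the 39 genes had all 6 spots well above background.

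YMR206W, an open reading frame with no standard name, stood apart from the rest. Its levels were −1.28, −1.21 and −1.98 on the F3 arrays, against −9.10, −9.53 and −9.49 on the reference arrays. In processed signal these were 3941, 3933 and 2103 intensity units in F3 and 5.10, 6.67 and 7.01 in the reference. All F3 values lay above all reference values, by 7.12 at the nearest, and the third F3 culture was the lowest of its group. By the processed signal the gene was at least 184-fold higher in F3, and it stood at percentile 49.5 of the F3 means. Its log2 difference was smaller than that bound with normexp, at 5.90 with no offset and 4.24 with the offset of 50. All 6 of its reference spots carried the weaker flag, so a faint signal was present there. YNR014W, its paralog from the ancient genome duplication, was readily detected in both strains at 0.76 ± 0.14 in F3 and −2.37 ± 0.18 in the reference. YNR014W differed by 3.13. The genes on either side of YMR206W, PFK2 and HFA1, differed by 0.04 and −0.09 relative to the 75th percentile.

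ZNF1 was the next by its bound and the only regulator of transcription with a standard name among the 39. Its levels were −4.45, −4.27 and −4.71 on the F3 arrays, against −10.12, −10.23 and −10.08 on the reference arrays. By the processed signal it was at least 23.1-fold higher in F3, and the strains were 5.37 apart at the nearest values. With normexp its log2 difference lay below that bound, at 3.76 with no offset and 1.78 with the offset. Of its 6 reference spots 1 carried the weaker flag. Both genes beside it on chromosome VI had positive differences too, under each scaling. YFL051C, which resembles flocculins, averaged −6.33 ± 0.45 in F3 and −9.20 ± 0.58 in the reference, and missed the rule because 1 reference array detected it. DAK2, a dihydroxyacetone kinase, differed by 1.55.

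Among the transporters, RSB1 had the highest bound. Its product moves sphingoid long-chain bases across the plasma membrane. Its levels were −4.55, −4.90 and −4.91 in F3, against −8.86, −9.39 and −9.29 in the reference, which gives at least 18.2-fold by the processed signal. Normexp gave a smaller log2 difference for RSB1, 2.85 with no offset and 1.28 with the offset. The groups lay 3.95 apart, and 5 of its 6 reference spots carried the weaker flag. Its neighbour RAT1, which encodes a nuclear exoribonuclease, differed by −1.10, and by 0.61 with spike-in scaling. YOR050C, on the other side, differed by −1.76 and −0.05 under the same settings.

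RSB1 belongs to a list of 34 genes of drug efflux and resistance, all measured. Of the other 33 genes, 29 were tested, and limma called 9 higher and 17 lower in F3 at an adjusted p under 0.05, with 3 not passing, where 41.5% of all tested genes were higher and 38.2% lower. Their median was −0.39, beside 0.05 over all tested genes. With scaling to spike-in RNAs, 22 were called higher and 3 lower, where 85.6% of all tested genes were higher and 4.29% lower, and the median lay at 1.32. RTA1, a relative of RSB1 in the same lipid-exporter family, rose by 2.08 (SE 0.19), whereas the exporters AQR1 and TPO2 fell by 3.76 and 2.99 (SE 0.14 and 0.11). These 3 directions were the same with spike-in scaling, with the normexp offset and with quantile normalization.

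HXT15 and HXT16 belong to the hexose transporter family, and their products also carry polyols such as sorbitol. The 2 genes are near-identical copies, so the array may not separate them, and which copy gave the signal is uncertain. HXT15 had levels of −6.46, −6.04 and −6.61 in F3, against −9.88, −10.26 and −10.11 in the reference. HXT16 had levels of −7.71, −7.04 and −7.91 in F3, against −9.86, −10.07 and −10.00 in the reference. Neither gene overlapped between strains, and in both the second F3 culture was the highest. By the processed signal HXT15 was at least 6.23-fold and HXT16 at least 2.75-fold higher in F3. With normexp and no offset the log2 difference of HXT15 was 2.04, smaller than its bound. With the normexp offset of 50, HXT15 stayed above 0 at 0.35 and HXT16 turned to −0.29.

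Each of these transporter genes lies beside a gene for sorbitol dehydrogenase near a chromosome end. SOR2, beside HXT15 on chromosome IV, averaged −5.77 ± 0.06 in F3 and −7.64 ± 0.15 in the reference. SOR1, beside HXT16 on chromosome X, averaged −5.62 ± 0.01 in F3 and −7.39 ± 0.46 in the reference. The dehydrogenase genes differed by 1.87 and 1.77, and by 0.29 and 0.36 with the normexp offset, and they too are near-identical. On its other side HXT16 adjoins YJR157W, which differed by −2.55. The list of hexose transporters and sensors holds 20 further genes, of which 17 were tested. Limma called 11 of them higher and 5 lower in F3, beside 41.5% and 38.2% of all tested genes, and their median was 1.15. Under spike-in scaling it called 16 higher and 0 lower, beside 85.6% and 4.29% (median 2.86). HXT17, a relative that was detected in both strains, rose by 2.85 (SE 0.18), while HXT13, another relative, was detected on no array. The largest differences of the list were those of HXT6 (5.78) and HXT7 (5.59), and the largest called decreases those of STD1 (−1.94) and HXT1 (−1.11), which lay at −0.23 and 0.60 with spike-in scaling.

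ARR3 and NFT1, the remaining transporter genes, lie at the ends of chromosomes XVI and XI. ARR3 encodes the plasma membrane exporter of arsenite and belongs to a cluster with its regulator ARR1 and the arsenate reductase ARR2. ARR3 had levels of −6.80, −6.51 and −6.76 in F3, against −8.28, −8.50 and −9.61 in the reference. By the processed signal it was at least 3.57-fold higher in F3. The third reference culture was its lowest, and the groups did not overlap. With normexp the log2 difference of ARR3 was smaller than its bound, at 1.10 with no offset and 0.011 with the offset. ARR1 differed by 0.78, and by 0.74 with the normexp offset. ARR2 differed by 0.29, and turned to −0.22 with the normexp offset and −0.10 with quantile normalization. The gene on the outer side, YPR202W, differed by −0.48.

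NFT1 encodes a putative ABC transporter of the MRP type, and in some strain backgrounds its reading frame is merged with that of YKR104W, which differed by −0.05. Its levels were −8.08, −7.86 and −6.54 in F3, against −7.97, −8.44 and −9.44 in the reference. It was the only one of the 39 genes whose groups overlapped: the first F3 array lay below the first reference array. Its F3 spread (SD 0.84) was the widest of the 39 and came with the third F3 array. Its difference of 1.12 became 0.64 without that array and 0.71 without the third reference array. Its bound was 1.88, and with the normexp offset of 50 the difference was −0.42.

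SLZ1, PCH2, CSM4 and OSW1 are genes of meiosis and sporulation. SLZ1, a subunit of the complex that methylates messenger RNA in early meiosis, had levels of −5.40, −4.50 and −5.31 in F3, against −9.95, −8.93 and −9.42 in the reference. By the processed signal it was at least 14.2-fold higher in F3, and the second culture was the highest in each strain. The log2 difference of SLZ1 was smaller with normexp, 2.83 with no offset and 1.14 with the offset. Its neighbour YNL195C differed by 3.05, with −1.69 ± 0.20 in F3 and −4.74 ± 0.22 in the reference.

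PCH2, an ATPase of the meiotic recombination checkpoint, had levels of −7.13, −7.22 and −7.45 in F3, against −9.27, −9.71 and −10.05 in the reference. CSM4, needed for chromosome movement in meiotic prophase, had −7.38, −7.02 and −7.35 in F3, against −8.88, −10.40 and −9.38 in the reference. Both were dim, with bounds of 3.34 and 3.30, and both turned to −0.24 with the normexp offset of 50. OSW1, which acts in assembly of the outer spore wall, had −8.25, −7.49 and −7.71 in F3, against −10.17, −8.57 and −8.32 in the reference. Its groups were 0.07 apart at the nearest values, its bound was 1.75, and its difference of 1.20 became 0.63 without the first reference array and −0.58 with the normexp offset.

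CSM4 and OSW1 are part of a list of meiosis and sporulation genes with 72 other measured genes, of which 59 were tested. Limma called 31 of these higher and 9 lower in F3, beside 41.5% and 38.2% of all tested genes, with 19 not passing. The median was 0.35, beside 0.05 over all tested genes. The direction of that list depended on the processing: 14 were called higher and 27 lower with the normexp offset (median −0.20), where 35.8% and 41.8% of all tested genes were. With spike-in scaling 54 were called higher and 1 lower (median 2.06), where the shares were 85.6% and 4.29%. The called genes that differed most were RIM4 (2.80) and SGA1 (2.67) among the higher ones and SPO19 and SSP1 among the lower ones. SPO19 averaged −10.29 in F3, where no array detected it, and −6.93 in the reference. SSP1 differed by −2.11, and by −0.40 with spike-in scaling. All 7 markers chosen for sporulating cells (IME2, SPO11, SPS1, SPS4, NDT80, DIT1 and SMK1) were measured, and none was undetected on all arrays. Of these, 3 were called higher and 2 lower. The summed level of the 7 markers was taken in units of the 75th percentile. It was between 0.255 and 0.263 on the F3 arrays and between 0.252 and 0.301 on the reference arrays. On this scale the sums overlapped. With spike-in scaling SPS1 and SPS4, the 2 called lower, lay at −0.35 and −0.03, and the other markers between 1.41 and 2.74. The part of such cells in the result was not tested. SLZ1 and PCH2 were not on that list.

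GTO3 had levels of −7.24, −7.48 and −7.87 in F3, against −8.35, −9.60 and −8.43 in the reference. The groups were 0.48 apart, the bound was 2.21, and with the normexp offset the difference was −0.50. Its relatives of the omega class were bright enough to be measured in both strains. GTO1 averaged −2.62 ± 0.15 in F3 and −5.34 ± 0.09 in the reference, and ECM4, also called GTO2, averaged −0.60 ± 0.13 in F3 and −3.65 ± 0.14 in the reference. Their differences were 2.72 and 3.05. GTO3 also lies next to GAD1, the glutamate decarboxylase gene, which differed by 3.16.

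The other genes with a standard name are ECM8, AIM26, JIP3, DCV1 and ANS1. ECM8 was the clearest of them, with −5.61, −5.54 and −5.80 in F3, against −8.84, −9.16 and −8.79 in the reference, and at least 9.72-fold higher in F3 by the processed signal, with log2 differences of 2.06 and 0.73 by normexp without and with the offset. AIM26 had −6.79, −5.77 and −6.68 in F3, against −8.91, −8.81 and −8.05 in the reference, with a bound of 4.52. In F3 its second culture was the highest. JIP3, DCV1 and ANS1 had bounds of 2.32, 1.80 and 1.61, and JIP3 overlaps MID2 in the RefSeq table, so the signal cannot be assigned to one of them with certainty. MID2 differed by 0.29. AIM26, JIP3, DCV1 and ANS1 turned below 0 with the normexp offset and ECM8 did not.

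Of the 12 genes listed under a systematic name alone, YMR206W was described above. YFL015C, the gene with no reference spot under the weaker flag, had −6.62, −6.64 and −6.81 in F3, against −10.10, −10.41 and −10.06 in the reference. By the processed signal it was at least 5.01-fold higher in F3, with an SD of 0.11 in F3 and 0.19 in the reference. Normexp gave YFL015C a log2 difference below that bound, 2.09 with no offset and 0.13 with the offset. It lies next to HSP12, which encodes a small membrane-bound stress protein and averaged 2.59 ± 0.07 in F3 and −3.73 ± 0.27 in the reference. YIL054W had −6.01, −5.26 and −5.84 in F3, against −8.09, −8.84 and −8.37 in the reference, and a bound of 6.63. All 6 of its reference spots carried the weaker flag, and its groups were 2.08 apart. With normexp the log2 difference of YIL054W was smaller than its bound, at 2.01 with no offset and 0.62 with the offset. The remaining 9 genes of this kind had bounds between 1.87 and 4.27, and all of them turned below 0 with the normexp offset. YJR128W, 1 of these, overlaps RSF2, which differed by 0.10.

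The 11 genes not listed in the RefSeq table had bounds between 1.38 and 7.69 and differences between 0.47 and 3.52. As that table gives no position for them, their overlaps with other genes were not checked. Some may overlap a neighbour, so their signal cannot be assigned to them with certainty. YKL177W had the highest bound of these, with −5.74, −5.81 and −5.97 in F3, against −9.16, −8.56 and −8.88 in the reference. Normexp gave YKL177W a log2 difference below that bound, 1.66 with no offset and 0.47 with the offset. The number of YKL177W places it beside STE3, the receptor gene for a-factor. STE3 averaged −4.05 ± 0.04 in F3 and −4.85 ± 0.12 in the reference. The 6 markers of a cells summed to 4.24 to 4.38 on the F3 arrays and 7.45 to 7.82 on the reference arrays. These sums are in units of the 75th percentile. Of the 6 markers, 1 was called higher in F3 (AGA2, by 1.38) and 4 lower, most of all STE2 (−2.13). Of all tested genes 41.5% were higher and 38.2% lower. With spike-in scaling STE2 lay at −0.42 and the other markers of a cells between 0.38 and 3.09. The part of cell type in the result was not tested. The 4 markers of alpha cells summed to 0.139 to 0.148 in F3 and 0.120 to 0.148 in the reference. Of these, STE3 was called higher (0.80), MF(ALPHA)1 lower (−1.40), 1 did not pass and 1 was not tested. With spike-in scaling the 4 lay between 0.31 and 2.51. Of 7 markers of haploid cells, 3 were called higher, 3 lower and 1 did not pass. They summed to 5.59 to 6.11 in F3 and 6.10 to 6.63 in the reference. YDR535C followed, with −6.13, −6.19 and −6.02 in F3, against −9.52, −9.54 and −9.85 in the reference. By the processed signal YDR535C was at least 7.44-fold higher in F3. Its log2 difference was smaller than that bound with normexp, at 1.81 with no offset and 0.36 with the offset. Neither gene overlapped between strains, and both stayed above 0 with the normexp offset.

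The genes were spread over 14 of the 16 chromosomes, with between 1 and 5 on each, and no 2 of them had adjacent numbers. Systematic numbers count outward along each arm, so they also show which genes lie near an end. Of the 39 genes, 7 (17.9%) were among the last 10 numbers of their arm, beside 5.12% of the 6233 nuclear genes on the array. These were HXT15, HXT16, ARR3, NFT1, YGR290W, YPR195C and YCR102W-A. The window of 10 numbers was chosen after the positions were seen.

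The nearest numbered genes on either side gave 78 neighbours, 76 of them tested. Of these, 18 (23.7%) were called at least 2-fold higher in F3 and 10 (13.2%) at least 2-fold lower by limma, where 16.6% and 16.2% of all tested genes were. The median difference of the neighbours was 0.21. Several of the dim genes without a standard name lie beside genes with far larger signal. YMR082C, with a bound of 2.88, is next to ISF1, which averaged 0.76 ± 0.24 in F3 and −5.68 ± 0.13 in the reference. YPR195C, with a bound of 3.20, is next to the oligopeptide transporter gene OPT2, at −1.34 ± 0.63 in F3 and −6.04 ± 0.08 in the reference. YGR290W, with a bound of 3.50, is next to the maltose transporter gene MAL11, at 2.44 ± 0.05 in F3 and −2.15 ± 0.06 in the reference. Other members, among them YMR206W, ECM8 and NFT1, had neighbours that differed by less than 0.5 on either side.

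**Figure D4:**
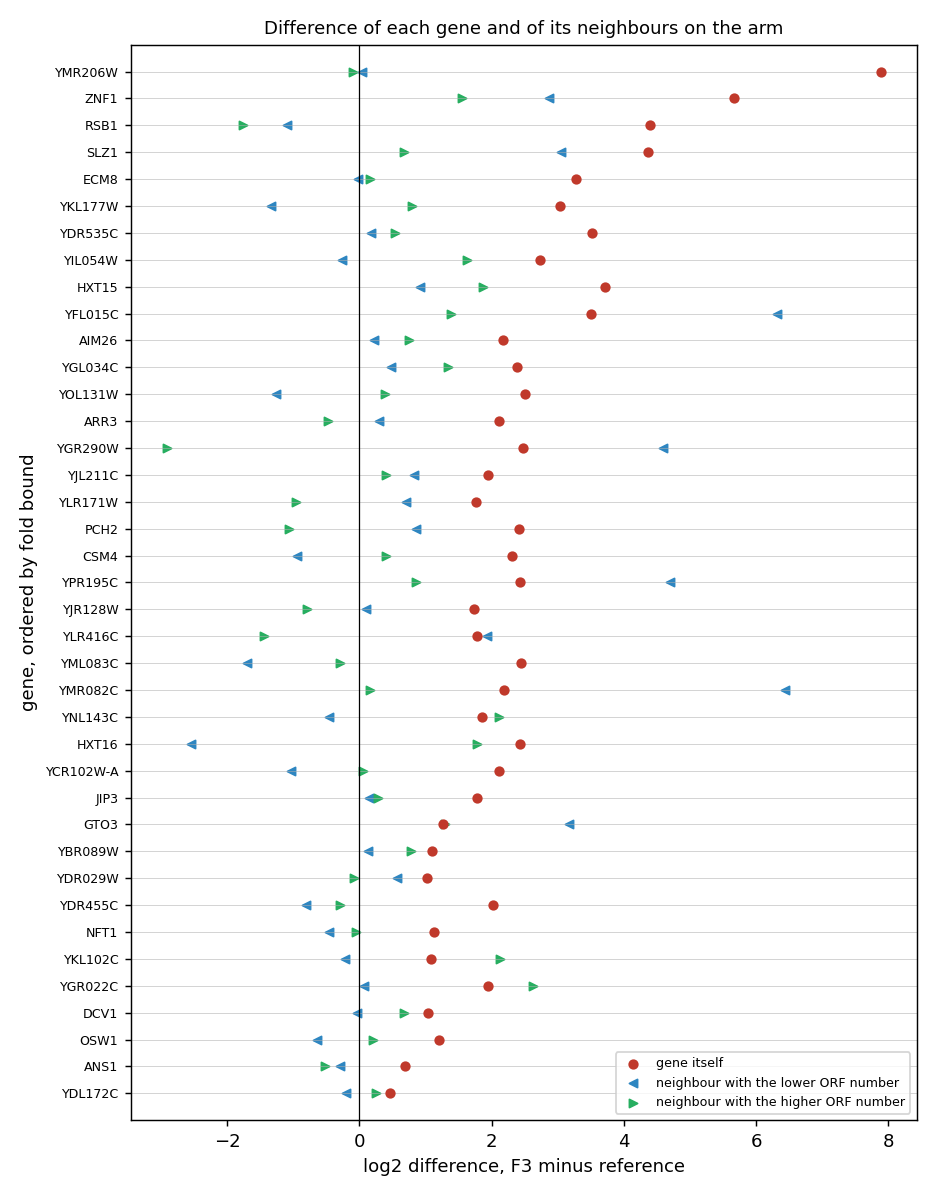
Log2 difference (F3 minus reference, horizontal) of each of the 39 genes (circles) and of the genes with the next lower and next higher number on the same chromosome arm (triangles). The neighbours HSP12, ISF1, OPT2 and MAL11 lie at 6.32, 6.43, 4.70 and 4.59, to the right of the gene they adjoin, and the other triangles lie on both sides of 0.

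The rule did not use the spread between F3 cultures directly. It required detection on every F3 array, so a dim gene with a low level on any F3 array could be left out. This can narrow the F3 spread of the 39 genes. The median SD of the 39 genes over the F3 arrays was 0.20, beside 0.18 for 108 other tested genes with F3 means between −7.56 and −6.55 and 0.09 for all tested genes. The 108 other genes were not chosen by the rule, so these medians cannot show whether the 39 genes varied more or less between cultures. The SD of single genes among the 39 ran between 0.06 and 0.84.

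At the edge of the rule, the genes just inside were YDL172C, YGR022C and YKL102C, with F3 means of −8.18, −8.16 and −8.04 and reference means of −8.64, −10.11 and −9.11. YDL172C had 4 of its 6 F3 spots flagged and YKL102C had 3. A further 25 genes were detected on all F3 arrays and on exactly 1 reference array. Of these, YFL051C, YDR426C and YHR145C had the lowest reference means, at −9.20, −9.11 and −9.05, with F3 means of −6.33, −7.32 and −7.45. Their differences of 2.87, 1.79 and 1.61 lay within the range of those inside, and YDL172C, YGR022C and YKL102C differed by 0.47, 1.95 and 1.08.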

How the data were processed

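The members and gene lists were chosen with earlier results of these data known. The software was Agilent Feature Extraction, version 10.7.3.1 per the file headers and 9.1 per the submitters' processing notes. The deposited processed signal is an intensity, background-subtracted and detrended within each array by the software per the file headers. The authors' deposited table holds log2 values centred on each probe's median over arrays. Its columns correlated with scanner values centred likewise (r between 0.975 and 0.986), so its direction is theirs, its column medians lay between −0.01 and 0.01, and its scaling between arrays stays unknown. Log2 values of the 2 spots of a gene were averaged and the array's 75th percentile subtracted. Genes detected on at least 3 arrays entered lmFit and eBayes of limma (version 3.58.1, R version 4.3.3), with two-sided p-values adjusted by Benjamini-Hochberg over 5948 genes and a threshold of 0.05. This step was checked on simulated data. The number of arrays limits the precision. Replicates are separate cultures by the design text, which names minimal medium where the growth label names overnight growth in rich medium. Names came from the RefSeq table of assembly R64, used for names, gene order and overlaps: 5756 genes matched by locus tag, 23 by synonym and 477 not. The file headers name an older genome release than R64, so no coordinates are printed. Every member could be named; at most 20 were to be given array by array, others by range, and other genes only as neighbours, paralogs, markers or the largest called genes of a list. No promoter, protein or probe sequences were at hand, so the planned promoter motifs were not analysed here. Normexp used the median spot signal, as the files hold no mean. Spike-in scaling used the 7 E1A probes detected on every array. The slide, of which F3 had 1 and the reference 2, was tried as a random block. Same-numbered cultures of the strains were not paired: their deviations correlated at −0.15, 0.08 and −0.25.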

Additional observations from a re-analysis of the deposited data

How the results depend on the processing

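The number of genes was 39 with the rule as given, 29 when all spots had to be flagged on each F3 array, and 34 with 1 shared limit on every array, of which 23 were among the 39. With the weaker significance flag it was 13, of which 1 was among the 39. Leaving out 1 array, which can only relax the rule and keeps all 39 by construction, gave between 40 and 53 genes. The median difference of 2.18 stood between 2.08 and 2.24 when 1 array was left out, and at 2.18 with the replicate block, which moved no count of calls by over 1.5 times. It was 2.31 with quantile normalization, 2.32 with the authors' table, 3.89 with spike-in scaling, −0.26 with normexp and its offset of 50, and 0.79 with normexp and no offset, an alternative chosen after seeing the data. With the offset, 28 of 39 genes turned below 0: AIM26 (−0.031), YGL034C (−0.12), YPR195C (−0.19), YLR171W (−0.24), PCH2 (−0.24), CSM4 (−0.24), YML083C (−0.25), YOL131W (−0.26), YGR290W (−0.26), HXT16 (−0.29), YJL211C (−0.31), YLR416C (−0.34), YMR082C (−0.37), YCR102W-A (−0.38), YNL143C (−0.42), NFT1 (−0.42), JIP3 (−0.45), YDR455C (−0.48), GTO3 (−0.50), YJR128W (−0.51), YDR029W (−0.53), ANS1 (−0.55), OSW1 (−0.58), YGR022C (−0.59), DCV1 (−0.60), YBR089W (−0.61), YKL102C (−0.61) and YDL172C (−0.72). With no offset YBR089W (−0.018) and YDL172C (−0.11) did. The offset alone gives −1.14 by construction. Of the 39 genes, 31 had bounds of at least 2-fold, or between 28 and 33 with 1 array left out, 36 with quantile normalization, 39 with spike-in scaling, and 4 with the 5th percentile of detected levels as the limit. With spike-in scaling, limma called 4582 genes at least 2-fold higher and 164 lower (988 and 963 otherwise), with 95.2% of all calls higher in place of 52.0% and the median of all genes at 1.76; the cause was not tested. The median F3 SD was 0.20, and 0.13 with normexp. Called genes numbered 4742, and between 4434 and 4830 with 1 array left out, the replicate block, the slide block, normexp, quantile normalization, the authors' table or no filter. The promoter window alternative was not run. Signal near background limits these genes.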
